A study of Homo sapiens with 6 samples.

Results

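The guide strands of the let-7 family are the 9 mature microRNAs (miRNAs) let-7a-5p, let-7b-5p, let-7c-5p, let-7d-5p, let-7e-5p, let-7f-5p, let-7g-5p, let-7i-5p and miR-98-5p. They were taken by name from 2656 mature miRNAs in the table for KPL4, a human breast adenocarcinoma cell line. All 9 were among the 783 miRNAs abundant enough to test. The knockout group held 3 small RNA libraries of KPL4 cells with a knockout of estrogen receptor β (ERβ, encoded by ESR2), called S1, S2 and 3. The other group held 3 libraries of ERβ knockout cells carrying exogenous ERβ, called 1, 2 and 3, so both groups share the knockout. All cells grew in medium with serum, insulin and hydrocortisone, and no treatment is recorded. The sources used here do not state the construct and promoter that supply ERβ, whether each group is 1 clone, or whether replicates were separate cultures. An effect of ERβ and another difference between these cells cannot be told apart, and the p-values below rest on the spread between libraries, which may be technical.

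let-7 miRNAs are cut from hairpin precursors and loaded into Argonaute proteins, where bases 2 to 8 of the guide, the seed, pair with messenger RNAs and lower their output. They are known for keeping cells differentiated and for restraining RAS, MYC and HMGA2. The RNA-binding proteins LIN28A and LIN28B block the maturation of let-7 precursors, and loss of let-7 is common in undifferentiated tumours. These proteins and targets are not measured by small RNA sequencing.

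The sequences are shown because they define the family and because members differ by so few bases that reads can be shared between names. They come from RefSeq (GRCh38.p14), in which all 9 were matched, and are written 5′ to 3′ with the seed in capitals.
let-7a-5p: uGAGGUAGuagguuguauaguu
let-7b-5p: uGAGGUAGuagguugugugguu
let-7c-5p: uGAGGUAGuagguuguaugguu
let-7d-5p: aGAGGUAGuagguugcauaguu
let-7e-5p: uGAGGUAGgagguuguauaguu
let-7f-5p: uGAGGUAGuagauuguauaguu
let-7g-5p: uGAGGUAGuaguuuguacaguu
let-7i-5p: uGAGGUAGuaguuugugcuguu
miR-98-5p: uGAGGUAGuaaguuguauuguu

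All 9 are 22 bases long and share the same 7-base seed. Over the 36 pairs, members differed at 1 to 6 bases, and 4 pairs differed at 1 base. Relative to let-7a-5p, with positions counted from 1 at the 5′ end, let-7c-5p carries A19G, let-7e-5p U9G and let-7f-5p G12A. let-7b-5p carries A17G and A19G, let-7d-5p U1A and U16C, let-7g-5p G12U and U18C, and miR-98-5p G11A and A19U. The most distant from let-7a-5p is let-7i-5p, with G12U, A17G, U18C and A19U. In each library 8 or 9 of the 9 members had counts that were not whole numbers, as where reads are divided among several miRNAs.

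The members come from 12 hairpins (GENCODE release 29, GRCh38; all at the same positions in RefSeq). let-7a-5p is encoded 3 times. MIRLET7A1 (chromosome 9, 94175957 to 94176036) lies 310 bases before MIRLET7F1 (94176347 to 94176433), and MIRLET7D (94178834 to 94178920) follows, all within an intron of the transcript AL158152.2. MIRLET7A2 (chromosome 11, 122146522 to 122146593) lies in an intron of MIR100HG. MIRLET7A3 (chromosome 22, 46112749 to 46112822) and MIRLET7B (46113686 to 46113768) lie in exonic sequence of MIRLET7BHG. MIR98 (chromosome X, 53556223 to 53556341) and MIRLET7F2 (53557192 to 53557274) are intronic in HUWE1, which encodes a ubiquitin ligase. The remaining hairpins are also intronic: MIRLET7C (chromosome 21, 16539828 to 16539911) in MIR99AHG, MIRLET7E (chromosome 19, 51692786 to 51692864) in SPACA6, MIRLET7G (chromosome 3, 52268278 to 52268361) in WDR82 and MIRLET7I (chromosome 12, 62603686 to 62603769) in AC048341.1.

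Library totals ran from 10288415 to 14296902 counts. The knockout library S2 stood apart: compared with the other knockout libraries, chi-square per degree of freedom was 307 and 331, and 12.2 to 21.2 for all other pairs within a group. It bears on every member and is treated with the results below. Epithelial markers such as miR-200c-3p, miR-141-3p and miR-205-5p summed to 54848 to 62045 CPM (counts divided by TMM-scaled library totals and set to a common depth) in knockout cells and 49421 to 52164 CPM with ERβ, without overlap. Of the 5 epithelial markers, miR-200c-3p, miR-141-3p and miR-375-3p were called lower with ERβ and miR-205-5p higher. The 6 blood markers summed to 18.02 to 23.0 CPM. The endothelial and stromal markers were not low, at 13083 to 16967 CPM in sum, nearly all of it miR-126-3p, and miR-126-3p and miR-143-3p were both called lower with ERβ. The liver marker miR-122-5p was at 17.2 to 28.7 CPM, the 3 muscle markers together at 0.473 to 4.34 CPM, with miR-1-3p called lower, and the neural marker miR-124-3p at 0.0818 CPM or less. The part of other cells in the results below was not tested.

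The family was among the most abundant in these cells. The 9 members together took 15.3%, 16.9% and 15.7% of all counts in knockout libraries S1, S2 and 3, and 14.9%, 14.96% and 15.3% in libraries 1, 2 and 3 with ERβ. The means were 16.0% ± 0.811 (SD, n = 3) and 15.1% ± 0.207 (n = 3). The highest ERβ library, at 15.29%, lay just under the lowest knockout library, at 15.34%. let-7f-5p and let-7a-5p ranked 3 and 4 among all tested miRNAs by mean CPM, let-7b-5p 15 and let-7c-5p, the least abundant member, 69.

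**Figure D1:**
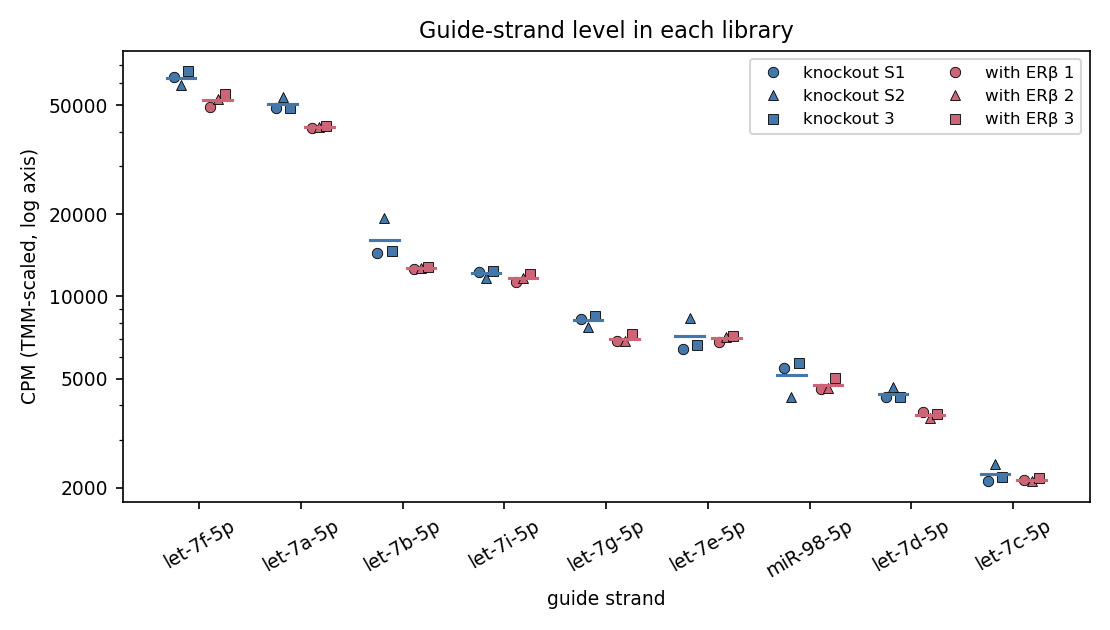
Level of each guide strand in CPM on TMM-scaled totals (log axis) in each of the 6 libraries, with a line at each group mean. Members run in the order of their mean in knockout cells, from let-7f-5p to let-7c-5p, and the knockout library S2 (triangle) lies off the other knockout libraries upwards for let-7b-5p and let-7e-5p and downwards for miR-98-5p.

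let-7f, let-7a, let-7d and let-7g guide strands were lower in the cells with exogenous ERβ, by 14.3 to 17.7%, and no member was called higher. Calls are those of the quasi-likelihood test in edgeR, with p-values adjusted by Benjamini-Hochberg over all 783 tested miRNAs and a threshold of 0.05. Of those 783, 13.3% were called lower, 9.83% higher and 23.1% either way. The calls rest on how the libraries are scaled: 0 of 9 members were called lower when upper-quartile factors or library totals were used, where 8.94% and 7.79% of tested miRNAs were. At an unadjusted p under 0.05 there were 2 members under the former and 0 under the latter. Under TMM and the 4 other scalings tried, all 9 members lay below the median of all tested miRNAs. A change of scaling shifts all miRNAs by about the same amount, so this position was nearly fixed and adds no support to the calls. With TMM but without knockout library S2, or without ERβ library 1, 8 members lay below the median of that fit.

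let-7f-5p, the most abundant member, stood at 63293, 58974 and 66462 CPM in knockout libraries S1, S2 and 3 and at 49065, 52651 and 54701 CPM in libraries 1, 2 and 3 with ERβ. The groups did not overlap, and the log2 fold change (ERβ over knockout, n = 3 per group throughout) was -0.27 ± 0.07 (SE; edgeR quasi-likelihood test, adjusted p = 0.0240). let-7a-5p stood at 48976, 53330 and 48992 CPM in knockout cells and at 41114, 41598 and 41828 CPM with ERβ. Its groups did not overlap either, and the spread among the ERβ libraries was small against the difference (log2 fold change -0.28 ± 0.06; edgeR adjusted p = 0.0104).

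let-7d-5p, from the same chromosome 9 cluster, went from 4276, 4647 and 4279 CPM to 3789, 3594 and 3718 CPM, with no overlap (-0.25 ± 0.07; edgeR adjusted p = 0.0247). let-7g-5p, from the WDR82 intron, went from 8265, 7740 and 8499 CPM to 6852, 6878 and 7261 CPM, also with no overlap (-0.22 ± 0.07; edgeR adjusted p = 0.0392). It was closest to the threshold of the 4 and was not called in 12 of 16 alternatives, against 6 for let-7a-5p, 8 for let-7d-5p and 9 for let-7f-5p.

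let-7b-5p had the largest fitted change but missed the threshold. It stood at 14359.5, 19301 and 14599 CPM in knockout cells and 12599, 12663 and 12786 CPM with ERβ, so the groups did not overlap, while library S2 lay far above the other knockout libraries. The log2 fold change was -0.34 ± 0.11 (95% interval -0.59 to -0.10; edgeR adjusted p = 0.0505). It was called in 7 of 16 alternatives, with adjusted p from 4.23e-04 to 0.317 over all of them.

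Groups overlapped for the other 4 members. miR-98-5p, from the HUWE1 intron, stood at 5494, 4297 and 5698 CPM in knockout cells and 4590.0, 4624 and 5014 CPM with ERβ. Here library S2 was the lowest of all 6, and the fold change was -0.12 (95% interval -0.36 to 0.12; edgeR adjusted p = 0.461). let-7e-5p stood at 6447, 8357 and 6622 CPM and at 6791, 7124 and 7141 CPM, with library S2 the highest of all 6 (-0.03, interval -0.25 to 0.20; edgeR adjusted p = 0.882). All 3 ERβ libraries lay above knockout libraries S1 and 3.

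let-7i-5p, encoded on its own on chromosome 12, showed little spread anywhere: 12283, 11686 and 12419 CPM in knockout cells and 11304, 11692 and 12083 CPM with ERβ (-0.05, interval -0.20 to 0.09; edgeR adjusted p = 0.609). let-7c-5p stood at 2113, 2431 and 2183 CPM and at 2129, 2109 and 2176 CPM (-0.07, interval -0.24 to 0.10; edgeR adjusted p = 0.568). The let-7c-5p interval includes the change measured for let-7g-5p, and the let-7i-5p interval does not.

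In all, 5 of 9 members had groups that did not overlap, each of them lower with ERβ, where 39.8% of all tested miRNAs had groups that did not overlap in either direction and 20.9% lay lower without overlap. The members' median log2 fold change was -0.22, with a range of -0.34 to -0.03, against a median of -0.012 over all tested miRNAs. The 79 other miRNAs averaging at least 1000 CPM reach below the least abundant member, let-7c-5p, at 2190 CPM. Among these 79, 25.3% were called lower and 34.2% either way. Their groups did not overlap in 55.7%, and lay lower without overlap in 36.7%, and the median log2 fold change was -0.08.

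Scaling moved all members together. The median log2 fold change of all tested miRNAs was -0.012 with TMM, 0.099 under upper-quartile factors and 0.14 under library totals, and the share of lower calls among all calls fell from 57.5% to 36.3% and 29.5%. The members' median moved with it, from -0.22 to -0.11 and -0.066. Relative to the median of all miRNAs it stayed at -0.21 under each of the 3, as a shift common to all miRNAs leaves this difference unchanged. let-7c-5p, let-7e-5p and let-7i-5p turned above 0 with upper-quartile factors (0.043, 0.086 and 0.059) and under library totals (0.084, 0.13 and 0.10), where miR-98-5p also did (0.038). let-7a-5p, let-7b-5p, let-7d-5p, let-7f-5p and let-7g-5p stayed below 0 under these scalings, without a call.

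**Figure D2:**
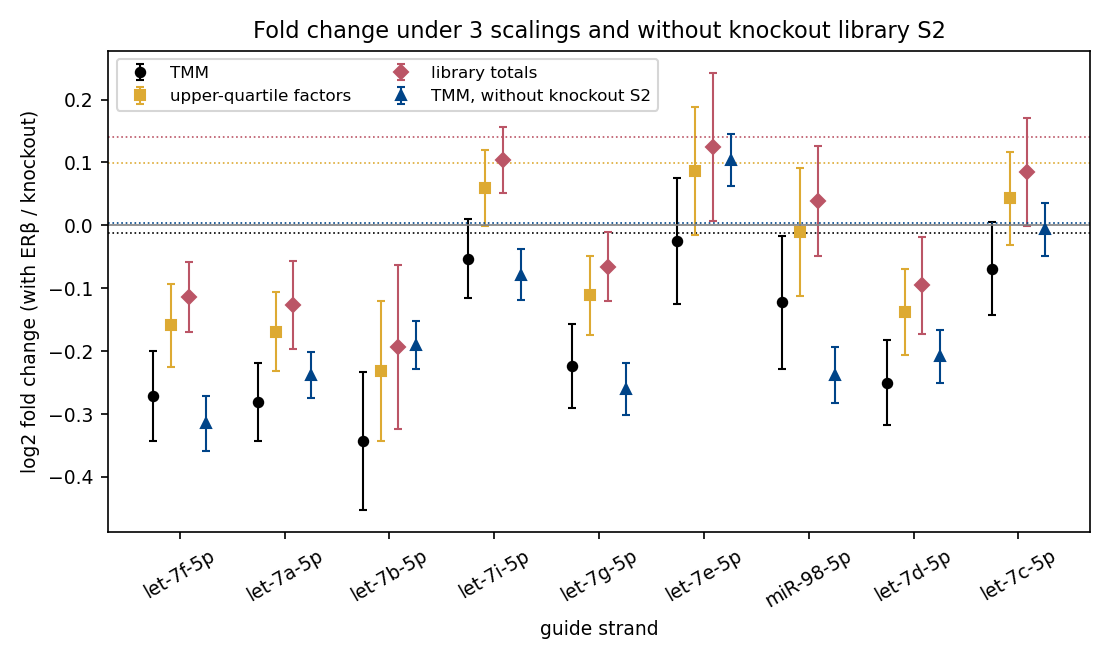
log2 fold change (ERβ over knockout) of each guide strand, with its standard error, under TMM, upper-quartile factors and library totals and, with TMM, without knockout library S2. Dotted lines give the median of all tested miRNAs under the same setting (-0.012, 0.099, 0.14 and 0.0034); changing the scaling shifts all members by about the same amount, while leaving out library S2 raises let-7e-5p and lowers miR-98-5p.

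Library S2 split the family. Against the mean of knockout libraries S1 and 3, it was higher on the log2 scale for let-7b-5p (0.41), let-7e-5p (0.35), let-7c-5p (0.18), let-7a-5p (0.12) and let-7d-5p (0.12). It was lower for let-7i-5p (-0.08), let-7g-5p (-0.11), let-7f-5p (-0.14) and miR-98-5p (-0.38). The first 5 hold 2 G bases at positions 11 and 12 of the sequences above, and the last 4 do not. This split was read from these same values, and whether it holds in other miRNAs was not tested. The deviation moved with base composition at the extremes: let-7b-5p has 10 G or C bases, the most of the 9, and let-7f-5p and miR-98-5p have 7, the fewest. Members between these did not all follow: let-7a-5p and let-7g-5p both have 8 but lay at 0.12 and -0.11. let-7i-5p, at -0.08, has 9, as do let-7c-5p, let-7d-5p and let-7e-5p, which lay above 0.

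The deviation also moved with base composition beyond the family. Over 173 miRNAs averaging at least 100 CPM with a RefSeq sequence, the deviation of library S2 and the share of G and C bases had a Pearson correlation of 0.67, given as a description since all points come from the same libraries. Its median was -0.29 for 51 miRNAs with under 40% G and C, -0.07 for 60 from 40% to under 50%, and 0.22 for 62 at 50% or more. The members have 31.8 to 45.5% G and C. The part of base composition in the members' fold changes was tested only by removing its trend from each library, an alternative chosen after the data were seen: 6 of 9 members were then lower, where 17.9% of tested miRNAs were, with let-7b-5p at -0.35 and miR-98-5p at -0.21 added to the 4.

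**Figure D3:**
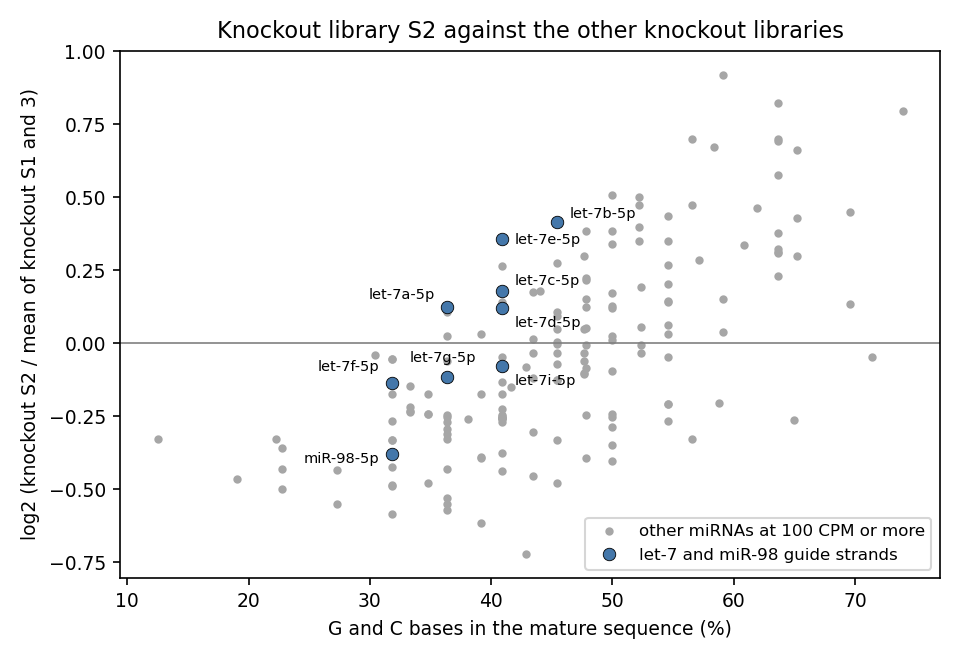
Deviation of knockout library S2 from the mean of knockout libraries S1 and 3 (log2) against the percentage of G and C bases in the mature sequence, for 173 miRNAs at 100 CPM or more. The deviation is higher for miRNAs with more G and C, and the 9 guide strands spread from -0.38 (miR-98-5p) to 0.41 (let-7b-5p).

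Without library S2 6 of 9 members were lower, where 19.6% of tested miRNAs were, and the errors were smaller. let-7f-5p was then at -0.31 ± 0.04, let-7g-5p at -0.26 ± 0.04, let-7a-5p and miR-98-5p both at -0.24, let-7d-5p at -0.21 and let-7b-5p at -0.19. let-7e-5p turned to 0.10 ± 0.04 (edgeR adjusted p = 0.0581), and let-7c-5p (-0.0061) and let-7i-5p (-0.078) were not called. In the other direction, 2 members were lower without knockout library S1, 3 without knockout library 3 and 0 without ERβ library 1, 2 or 3. The share of tested miRNAs called lower was 9.96%, 10.8%, 7.15%, 7.43% and 7.75% in these 5 fits. In the last 3 the log2 fold change of let-7a-5p was -0.24, -0.25 and -0.29, with edgeR adjusted p of 0.0910, 0.0956 and 0.0566.

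Proportions within the family do not depend on scaling. let-7f-5p made up 38.2%, 34.5% and 39.2% of the members' sum in knockout libraries S1, S2 and 3 and 35.5%, 36.8% and 37.3% in libraries 1, 2 and 3 with ERβ. let-7a-5p made up 28.9 to 31.2% and 28.5 to 29.7%. Groups overlapped for both, and also for let-7b-5p, let-7d-5p, let-7g-5p and miR-98-5p.

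The share of let-7i-5p was 7.42%, 6.84% and 7.32% in knockout cells and 8.18%, 8.18% and 8.24% with ERβ, so every ERβ library was higher. That of let-7c-5p was 1.28%, 1.42% and 1.29% against 1.54%, 1.48% and 1.48%, again without overlap. Of all tested miRNAs, 48.3% did not overlap when set against the same sum, so such a separation was common. let-7e-5p was at 3.90%, 4.89% and 3.90% in knockout cells and 4.91%, 4.98% and 4.87% with ERβ: only library S2 reached the ERβ libraries. In the means, let-7e-5p took 1.16 times, let-7i-5p 1.14 times and let-7c-5p 1.13 times its knockout share.

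The order of levels was nearly the same in both groups: let-7f-5p, let-7a-5p, let-7b-5p and let-7i-5p, then let-7g-5p and let-7e-5p, then miR-98-5p, let-7d-5p and let-7c-5p. let-7g-5p and let-7e-5p overlapped in both groups, with let-7g-5p higher by mean in knockout cells and let-7e-5p with ERβ. miR-98-5p and let-7d-5p overlapped in knockout cells only by the value of library S2. All other neighbours were separate. The ligation and counting preferences of the kit for each sequence were not measured, so these levels are counts and not copy numbers.

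Precursors of let-7 fall into those whose Drosha-cut end is ready for Dicer, namely let-7a-2, let-7c and let-7e, and those that first receive a single uridine. The guides made only from the former, let-7c-5p and let-7e-5p, were at -0.07 and -0.03. The 6 made only from the latter ran from -0.34 (let-7b-5p) to -0.05 (let-7i-5p). let-7a-5p is encoded by hairpins of both kinds, and what each gives to it was not measured. The strand let-7a-2-3p, from the other arm of the let-7a-2 hairpin, had 2.5 counts or fewer in each library. A difference between these classes was not tested.

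The other strand of each hairpin, the passenger or 3p strand, is mostly discarded. Of 11 listed passenger strands 10 were tested. By edgeR, DESeq2 or limma-voom 0 were called, with 0 at an unadjusted p under 0.05 in each. With edgeR 23.1% of all tested miRNAs were called, and 269 of 783 had an unadjusted p under 0.05. With the G and C trend removed 1 of the 10 was lower, where 17.9% of tested miRNAs were. The median log2 fold change of the passenger strands with TMM was -0.09, and values ran from -0.23 (let-7b-3p) to 0.22 (let-7c-3p). let-7c-3p, at 29.4, 25.6 and 27.0 CPM in knockout cells and 34.2, 30.9 and 30.6 CPM with ERβ, did not overlap and was called higher with upper-quartile factors (0.33) and library totals (0.38). let-7i-3p, at 88.8, 87.7 and 99.7 CPM in knockout cells and 82.8, 74.7 and 80.7 CPM with ERβ, did not overlap in the other direction (-0.21, interval -0.43 to 0.0061). Over all tested miRNAs 39.8% had groups that did not overlap in either direction. Without library S2, 3 of the 10 were lower, where 19.6% of tested miRNAs were: let-7f-2-3p (-0.32), miR-98-3p (-0.25) and let-7i-3p (-0.25). The first 2 come from the HUWE1 intron like miR-98-5p.

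Guide to passenger ratios compare both strands within a library. They ran from 27.9 to 32.5 over the 6 libraries for miR-98, the lowest of the family, and from 653 to 814 for let-7b, the highest. The let-7a ratio was 88.1, 108 and 81.9 in knockout libraries S1, S2 and 3 and 78.2, 76.5 and 72.1 with ERβ, and the let-7c ratio 72.0, 95.1 and 80.8 against 62.3, 68.2 and 71.0. Both were lower in every ERβ library, by 0.28 and 0.29 in log2, with an exact two-sided permutation p of 0.10, the smallest that 3 against 3 allows. Without library S2 the differences were smaller, at -0.17 for let-7a and -0.18 for let-7c. The other 7 ratios overlapped between groups, and 16.7% of 209 tested pairs of arms did not.

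**Figure D4:**
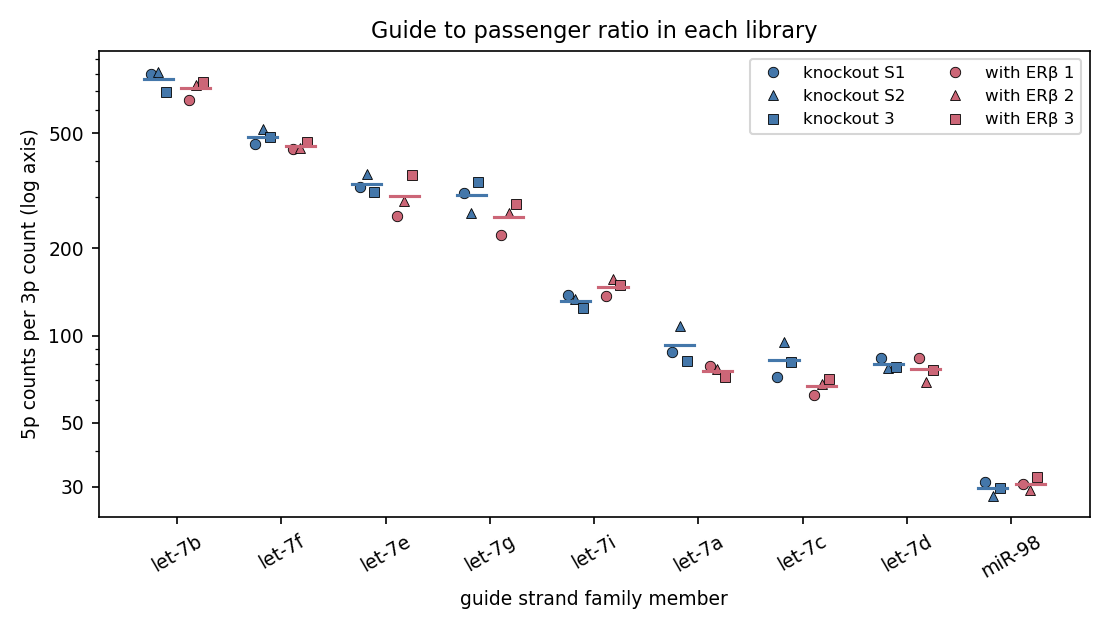
Counts of the 5p guide per count of the 3p passenger strand (log axis) in each library, with a line at each group mean; for let-7f the passenger counts of both hairpins are summed. let-7b lies highest, at 653 or more in every library, and miR-98 lowest, at 32.5 or less.

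Passenger strands also separate hairpins whose guides are identical. They are shown for let-7a, in lower case, since the chromosome 11 hairpin has its own passenger sequence.
let-7a-3p (MIRLET7A1 and MIRLET7A3): cuauacaaucuacugucuuuc
let-7a-2-3p (MIRLET7A2): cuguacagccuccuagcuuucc

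let-7a-3p had 5832 to 8584 counts per library, at 550 ± 51.7 CPM in knockout cells and 550 ± 27.9 CPM with ERβ (log2 fold change 7e-05, interval -0.20 to 0.20). let-7a-2-3p had 0, 0.5 and 0.5 counts in knockout cells and 0, 2.5 and 0 with ERβ, at or below the limit of 3 counts (0.210 to 0.292 CPM) that a count of 0 allows. It was therefore not detectable above that limit in either group. For let-7f, let-7f-2-3p from chromosome X outnumbered let-7f-1-3p from chromosome 9 in every library, by 3.92, 3.19 and 3.23 times in knockout cells and 2.79, 2.84 and 3.04 times with ERβ. This ratio was lower in every ERβ library (exact two-sided permutation p = 0.10, the smallest possible).

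Several let-7 hairpins share a transcript with miRNAs of the miR-99/100 and miR-125 families, of which miR-99 and miR-100 are known to target mTOR. The list of miRNAs sharing a transcript with a let-7 hairpin held 13, including miR-4763-5p and miR-4763-3p, which were too low to test. Of the 13, 9 were tested, with 1 higher and 0 lower and a median of -0.12. Over all tested miRNAs 9.83% were higher and 13.3% lower. The 1 was miR-100-5p, which shares MIR100HG with let-7a-2: it stood at 3.45, 2.23 and 4.53 CPM in knockout cells and 19.0, 17.2 and 19.8 CPM with ERβ (2.48 ± 0.21; edgeR adjusted p = 5.70e-05). The passenger strand miR-125b-1-3p of the same host had 0 counts in 5 libraries and 3 in ERβ library 3. The passenger strand miR-100-3p, too low to test, had 1 count in each knockout library and 5, 7 and 5 counts with ERβ. let-7a-2-3p and miR-125b-1-3p stayed at or below the limit of 3 counts.

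miR-99b-5p and miR-125a-5p, on either side of let-7e on chromosome 19, behaved like let-7e-5p in library S2. miR-99b-5p stood at 4696, 7290.4 and 4324 CPM in knockout cells and 4954, 4892 and 4895 CPM with ERβ, and miR-125a-5p at 12085, 16870.0 and 11637 CPM and 11018, 11150.0 and 11051 CPM. Library S2 was the highest of all 6 for both. Without it 3 of the 9 were higher (miR-100-5p, miR-99b-3p at 0.33 and miR-99b-5p at 0.12) and 2 lower (miR-99a-5p at -0.22 and miR-125b-5p at -0.11). Of the 800 miRNAs tested in that fit, 122 were higher and 157, or 19.6%, lower.

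Beyond the members, 2 other miRNAs carry the same seed among 2370 mature names with a RefSeq sequence. They are shown because they share bases 2 to 8 with the members.
miR-4458: aGAGGUAGguguggaagaa
miR-4500: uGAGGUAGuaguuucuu

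miR-4458, from an exon of MIR4458HG (chromosome 5, 8460925 to 8460999), went the other way from the guide strands. It stood at 10.8, 12.1 and 12.4 CPM in knockout cells and 16.1, 15.8 and 16.2 CPM with ERβ, without overlap (0.45 ± 0.12; edgeR adjusted p = 0.0239). Its call was kept with upper-quartile factors (0.56) and library totals (0.60). The call was lost without knockout library S1 (edgeR adjusted p = 0.0916) and without ERβ library 1, 2 or 3 (0.0680, 0.0699 and 0.0959), and ran from 0.00434 to 0.174 over 16 alternatives. The least abundant let-7 member, let-7c-5p, was at 2242 ± 167 CPM in knockout cells against 11.8 ± 0.838 CPM for miR-4458. miR-4500 had 1 count in a single library of each group and 0 in the others, and was not tested.

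**Figure D5:**
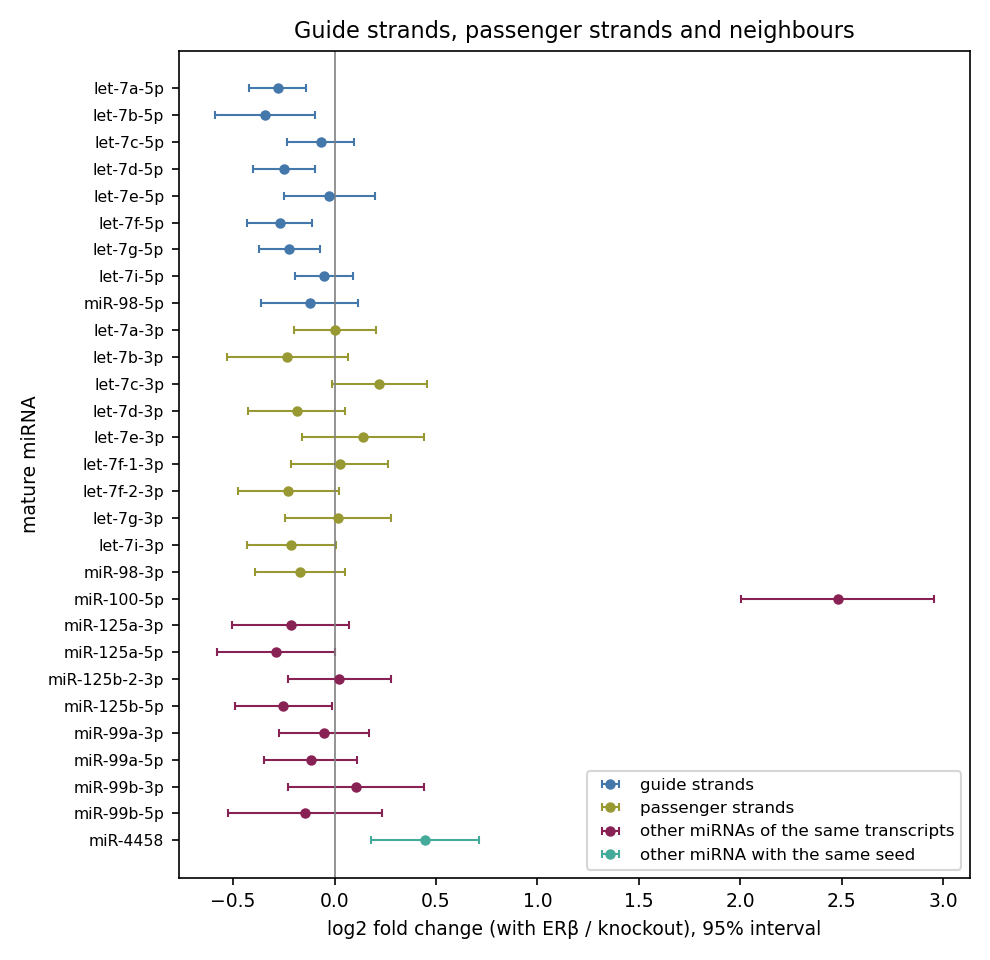
log2 fold change (ERβ over knockout) with its 95% interval for the 9 guide strands, the 10 tested passenger strands, 9 tested miRNAs of the same transcripts and miR-4458. The guide strands lie between -0.34 and -0.03, the passenger strands between -0.23 and 0.22, and miR-100-5p stands far to the right at 2.48.

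The 5 other miRNAs whose level followed the members' mean most closely, by Pearson correlation of log2 CPM over the 6 libraries among 182 candidates at 100 CPM or more, were miR-224-5p (0.98), miR-767-5p (0.98), miR-1299 (0.97), miR-24-3p (0.97) and miR-200c-3p (0.96). These values are a description of 6 libraries that form 2 groups. The members' fold changes all lay below 0, so miRNAs chosen by this correlation were likely to be lower as well. All 5 were called lower with ERβ, where 13.3% of all tested miRNAs were, and the calls are not separate support. They ran from -0.31 ± 0.07 for miR-200c-3p, an epithelial miRNA that represses ZEB1, to -1.39 ± 0.12 for miR-767-5p. miR-24-3p stood at 8259, 8965 and 8013 CPM in knockout cells and 6439, 6300.2 and 6459 CPM with ERβ (-0.39 ± 0.07).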

How the data were processed

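Small RNA libraries of 6 KPL4 samples were prepared with a QIAseq miRNA kit, per the labels' protocols. Per the submitters' processing notes, FastQC, Trim Galore and GRCh38 were used. The sources used here do not give the aligner, the counting rule, the annotation or any collapsing of molecular identifiers. The authors deposited expected counts for each mature miRNA, 6.33 to 7.27% of them not whole. Columns were assigned by name; 2 knockout columns carry the number 1, so these are known by group only and called S1 and S2.

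Counts were rounded and fitted with edgeR 4.0.16 (R 4.3.3), using filterByExpr (minimum count 10, total 15), TMM, robust quasi-likelihood test, Benjamini-Hochberg adjustment over all tested miRNAs at 0.05. Tested miRNAs held 99.98% of counts. CPM use unrounded counts over TMM-scaled totals; standard errors come from the fold change and its F statistic. Intervals and limits cover these libraries' spread or counting error only.

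The members, lists and naming rule (all members, passenger strands, miRNAs of the same transcripts, miRNAs of the same seed, the 5 most alike) were chosen with earlier results of these data known. Alternatives were 3 other scalings and TMM without the 10 most abundant miRNAs, no filter, 10 CPM in 3 libraries, DESeq2 1.42.0, limma-voom (3.58.1), a replicate block and each library left out. A further alternative, chosen after seeing the data, removed a loess trend on G and C content (span 0.75, degree 1). On simulated counts of 765 miRNAs the test recovered 10.0% of changes of 0.25 in log2, 41.7% of 0.5, 84.0% of 1 and 100% of 2, with 5.74% of calls false. Changed miRNAs were picked from the whole set without regard to abundance, and recovery at levels like those of the members was not computed separately. The simulation drew each miRNA separately, without a deviation shared across miRNAs like that of library S2. Its shares may therefore differ from those in these data. Figures used matplotlib 3.10.9.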

Additional observations from a re-analysis of the deposited data

How the results depend on the processing

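The count of members lower with ERβ was 4 with TMM, DESeq2 size factors, TMM without the 10 most abundant, the DESeq2 test and limma-voom. In these fits 12.5 to 13.4% of all tested miRNAs were lower. With the filter of 10 CPM in 3 libraries the count was 3, where 16.5% of 399 tested miRNAs were lower. Without a filter it was 2, where 5.42% of 1864 were. It was 0 with upper-quartile factors (8.94%) or library totals (7.79%), and 0 to 6 with a library left out (7.15 to 19.6%). The members behind these counts differed. TMM without the 10 most abundant and the DESeq2 test called let-7b-5p in place of let-7g-5p. The 2 called without a filter were let-7a-5p and let-7b-5p. No alternative called a member higher. Over all tested miRNAs 104 were lower and 77 higher; upper-quartile factors gave 123 higher, library totals 146 higher and 61 lower, the filter of 10 CPM in 3 libraries 66 lower among fewer tested, and a library left out 49 to 122 higher and 58 to 157 lower. The members' share of counts was 0.934 percentage points lower with ERβ (-1.79 without the 10 most abundant other miRNAs in the denominator, -1.25 to -0.478 with a library left out). Members with a sign that changed were let-7c-5p (0.0427 and 0.0843 with upper-quartile factors and library totals), let-7e-5p (0.0863 and 0.125 with these, 0.0233 without a filter, 0.0154 with the filter of 10 CPM, and -0.0929 to 0.104 with a library left out), let-7i-5p (0.0590 and 0.104, and -0.0782 to 0.00148 with a library left out) and miR-98-5p (0.0384 with library totals); none of these was called in TMM. The let-7d arm ratio (-0.06) ran from -0.133 to 0.00474 with a library left out. The cause of these changes was not tested beyond the shift of the median with scaling.

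Numbers 1 and 3 occur in both groups, with number 1 on 2 knockout columns. With these numbers as a replicate block, 0 members were lower, and 50 miRNAs (6.39%) were lower and 38 higher over all tested. The members' median was -0.22, and miR-4458 lost its call (0.45, edgeR adjusted p = 0.174). In that fit ERβ library 2 shared its block with no knockout library, so it added nothing to the group difference. Knockout libraries S1 and S2 were in the same block as ERβ library 1. Deviations of same-numbered libraries correlated at -0.26 and 0.31 for number 1 and 0.36 for number 3. Those of differently numbered libraries ran from -0.34 to 0.22. These values do not settle whether the numbers pair the samples, and the main fit used no block. Depth is not the limit for the guides, the least abundant of which had 21459 or more counts per library, but is for let-7a-2-3p, miR-4500 and miR-125b-1-3p.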
